A study of Mus with 5 samples.

Results

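The sites described here were BATF peaks in introns that kept a BATF peak nearby after retinoic acid (RA) was added to mouse CD8 T cells. A site was included when it was a BATF control peak on chromosomes 1 to 19, X or Y, when the authors' annotation placed it in the class intron, and when a BATF peak of the RA condition lay within 5 kb of it. The rule found 2051 sites among 15810 BATF control peaks on these chromosomes, and among 3181 BATF control peaks in introns. Both BATF lists chose the sites, so their BATF values are a description and were not tested. The RARα lists played no part in the choice.

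RARα, the retinoic acid receptor alpha, and BATF were mapped by chromatin immunoprecipitation and sequencing (ChIP-seq), in which an antibody recovers the DNA fragments that a protein is bound to. The cells were wild-type (WT) mouse spleen CD8 T cells, named naive in the labels, that had been activated for 24 h with antibodies to CD3 and CD28 and with IL-2, rested for 24 h with IL-2 at 100 U/ml, and lastly cultured for 1 h with 50 nM RA or with none, the latter being the control. Some labels name another interleukin than IL-2. The authors called 1 peak list per protein and condition, each on 2 pooled alignment files and each against the same IgG file, whose RA status the labels do not state. Whether the pooled files are replicates is not stated in the sources used here, so replicate spread is unknown and the conditions were compared without a test. The BATF pools held 23110180 fragments in the control and 16424269 with RA, which was 71.1% of the control. At a weak site, loss of a peak with RA cannot be told apart from the lower depth of the RA pool. Shares carry Wilson 95% confidence intervals, which reflect counting error alone. Neighbouring sites share a region or a gene and are not independent.

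BATF is a basic leucine zipper factor of the AP-1 family. It lacks a transactivation domain of its own and binds DNA as a dimer with JUN proteins, in T cells often beside IRF4 on composite elements. It is induced when T cells are activated and is needed for CD8 T cells to become effector cells. Introns hold many enhancers, at which AP-1 factors bind away from the promoter. RARα binds DNA with a retinoid X receptor and changes its partner proteins when RA occupies it.

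Of the intron peaks, 64.5% had an RA peak within 5 kb (95% confidence interval 62.8 to 66.1), against 69.9% of BATF control peaks of all classes. The share was 74.3% at promoters (73.4 to 75.2) and 62.3% between genes (60.5 to 64.0). The rule allows the RA peak to lie beside the control peak, and 1315 of the 2051 sites (64.1%, 62.0 to 66.2) overlapped it. Among all intron peaks 41.3% overlapped an RA peak (39.6 to 43.1), whereas 54.4% did so over all classes, with 61.2% at promoters (60.2 to 62.2) and 47.9% between genes (46.1 to 49.8). Overlap was thus less frequent in introns than in either of these classes, and the intervals did not overlap. For 676 of the 736 sites without overlap (91.8%), the nearest RA peak overlapped another BATF control peak, and for 196 of them (26.6%) it was annotated as a promoter. These sites were thus mostly neighbours of another BATF site that was called in both conditions. The share of all BATF RA peaks that overlap a control peak is not given here. Whether 91.8% differs from that share was not tested.

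At the distance limit, the sites just inside lay in introns of Prkcq (4919 bp from the RA peak), Foxp1 (4932 bp) and Fam65b (4972 bp). Their control fold was 4.80, 5.10 and 6.48. The intron peaks just outside lay in Ets1 (5028 bp), Rab5c (5030 bp) and Sp4 (5046 bp), with a control fold of 4.28, 4.32 and 4.23. Each of the values just inside was above each of those just outside.

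Fold enrichment is the number of fragments at the peak summit plus 1, over the local IgG level plus 1, as the peak caller computed it. At the 2051 sites the control fold ranged from 2.40 to 53.7, with a median of 5.63 and quartiles of 4.45 and 7.90. The summits held 13 to 390 fragments, with a median of 30. At the nearest RA peaks the fold ranged from 2.51 to 64.2 with a median of 5.45, and the median number of fragments was 23. The 1130 intron peaks with no RA peak within 5 kb had a median control fold of 4.72 and a highest value of 15.4. A control fold of at least 10 was found at 319 kept sites (15.6%) and at 8 of the others (0.708%).

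Overlap with an RA peak was more frequent at intron sites that were strong in the control. With a control fold up to 4, 13.9% of 581 intron peaks overlapped an RA peak (11.4 to 17.0). The share was 43.7% for a fold of 5 to 7 (40.7 to 46.8), 72.0% for 7 to 10 (67.5 to 76.0) and 94.2% for 10 to 15 (89.6 to 96.8). Above 15 it was 99.4%, with 154 of 155 intron peaks overlapping (96.4 to 99.9). The share with an RA peak within 5 kb was already 51.6% in the weakest group (47.6 to 55.7), so the distance rule separated weak from strong sites less than overlap did.

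**Figure D1:**
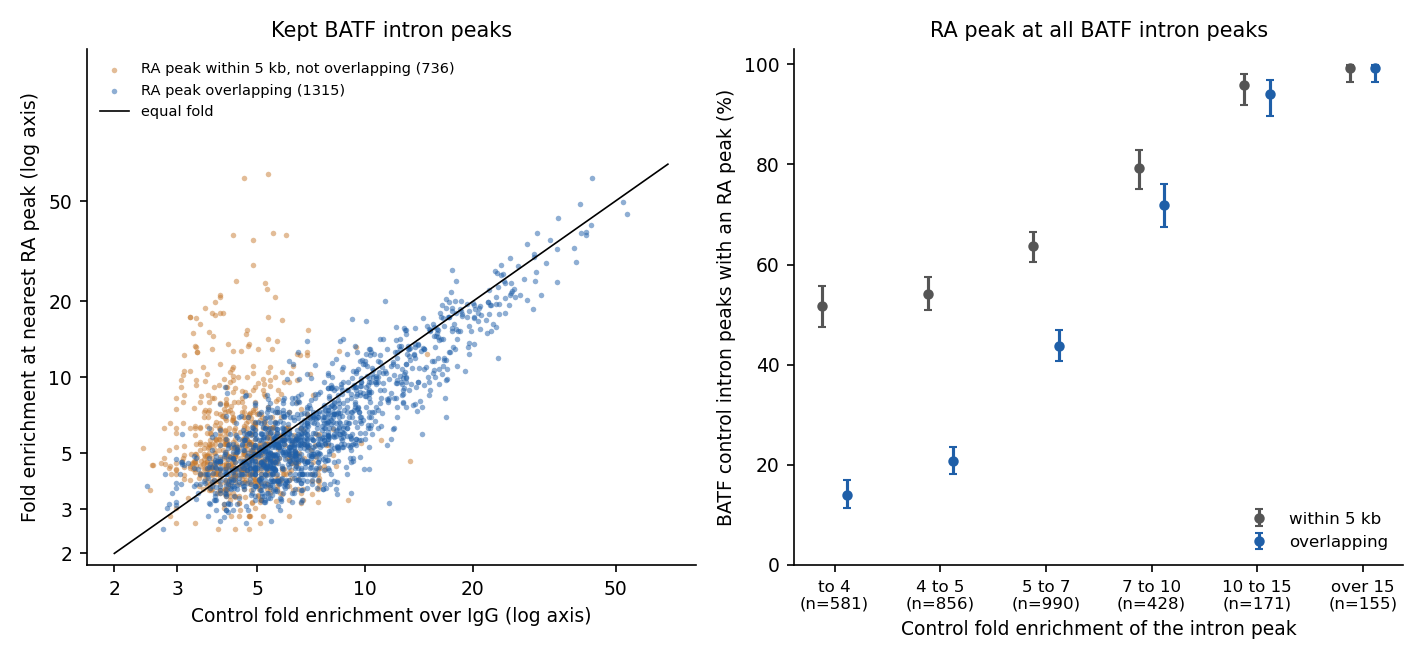
Left, fold enrichment over IgG at each of the 2051 kept BATF intron peaks in the control (x axis, log scale) and at the nearest RA peak (y axis, log scale), with overlapping pairs in blue, other pairs in orange and the line of equal fold. Right, the share of all BATF control intron peaks with an RA peak within 5 kb (grey) or overlapping (blue) by control fold, with Wilson 95% intervals. The blue pairs follow the line while the orange points high above it pair a weak site with a strong neighbour, and overlap rises from 13.9% to 99.4% with control fold.

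The fold was lower with RA at 57.8% of the 2051 sites (55.7 to 59.9), against 66.9% of kept BATF control peaks of all classes, and the median ratio of RA to control fold was 0.944. This direction was not stable: the share was 49.9% with the highest RA peak within 5 kb, where the median ratio was 1.000, and 49.5% with the IgG level used without the added constant. The value also mixes different positions, since a site without overlap is compared with a neighbour. At the 1315 overlapping sites the fold was lower with RA in 71.1% (68.6 to 73.5), against 75.5% of overlapping pairs of all classes. There the median control fold was 6.79 and the median RA fold 5.77, with a median ratio of 0.880. At overlapping promoter peaks the median ratio was 0.797, and between genes it was 0.895. The number of fragments scaled to the depth of each pool gave a median ratio of 0.905 in introns, 0.804 at promoters and 0.922 between genes. Without the added constant, the fold was lower with RA at 59.3% of the overlapping intron sites (56.6 to 61.9). That median ratio was 0.935 in introns, 0.844 at promoters and 0.957 between genes. The median ratio was lower at promoters than in introns on each measure.

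Few overlapping intron sites differed by 1.5 times or more. A fold at least 1.5 times lower with RA was found at 191 of the 1315 (14.5%, 12.7 to 16.5), below the 22.6% of overlapping pairs of all classes and the 26.7% at promoters (25.6 to 27.9). A fold at least 1.5 times higher was found at 33 (2.51%, 1.79 to 3.50), against 2.24% of all overlapping pairs. Between genes, 13.0% of overlapping peaks were at least 1.5 times lower (11.3 to 14.9) and 2.99% at least 1.5 times higher (2.21 to 4.03). The share of such decreases was thus lower in introns than at promoters but similar to that between genes. The share of such increases in introns was close to that of all classes. These calls rest on the fold alone, without a counting interval for each site.

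By fold, the difference from promoters was larger at the strong sites. With a control fold of 7 to 10, the median log2 ratio of RA to control fold was -0.35 at 308 overlapping intron sites and -0.51 at 1617 overlapping promoter peaks. With a control fold of 10 to 15 it was -0.23 at 161 intron sites (quartiles -0.54 and -0.05) and -0.56 at 712 promoter peaks (quartiles -0.84 and -0.31). Above 15 it was -0.20 at 154 intron sites (quartiles -0.44 and 0.01) and -0.55 at 239 promoter peaks (quartiles -0.78 and -0.32). Intergenic peaks had medians of -0.26 and -0.21 in these last groups, close to the intron values. Strong intron and intergenic sites thus had ratios nearer to 1 than promoter peaks of a similar control fold, although the quartile ranges overlapped. Up to a fold of 4, the median log2 ratio was 0.21 in introns and 0.21 at promoters. With fragments scaled to pool depth, the medians in that weakest group differed, at 0.05 in introns and -0.09 at promoters. Control fold sets these groups and is also the denominator of the fold ratio. Its part in the trend across groups was not tested.

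**Figure D2:**
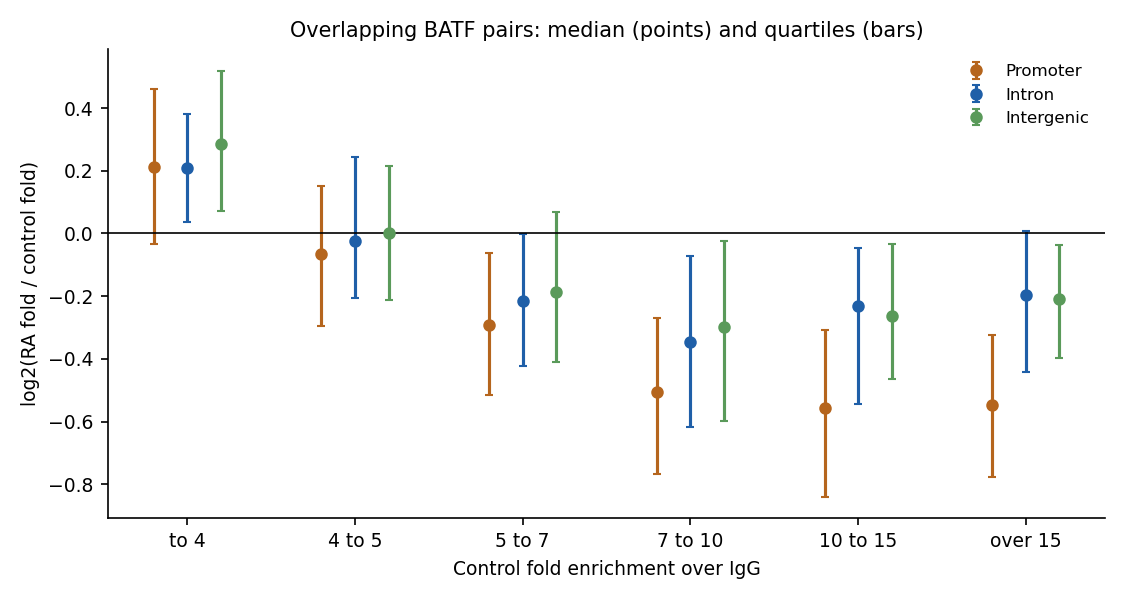
Median log2 ratio of RA to control fold enrichment (points) with quartiles (bars) for BATF control peaks that overlap an RA peak, grouped on the x axis by control fold and coloured by class. Above a control fold of 10 the promoter medians lie at -0.56 and -0.55, and the intron medians at -0.23 and -0.20.

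The 10 kept sites of highest control fold all overlapped their RA peak. The strongest lay in intron 6 of 7 of Ikzf2, which encodes Helios, a zinc finger factor of the Ikaros family (mm10 chromosome 1, 69543935 to 69544892). It had 209 fragments and a fold of 53.7 in the control, and 133 fragments and a fold of 44.3 with RA. Scaled to the depth of the pools, RA gave 0.895 times the control fragments (0.715 to 1.12, an exact interval for counting error only). A site in intron 2 of 20 of Gnptab, whose product helps to target enzymes to lysosomes, had a fold of 52.6 in the control and 49.7 with RA (chromosome 10, 88405476 to 88406556). The intron 5 site of Smarca2, an ATPase of the SWI/SNF chromatin remodelling complex, had 42.7 and 40.1 (chromosome 19, 26646038 to 26646679). The ratio of RA to control fold was 0.825, 0.945 and 0.940 at these sites.

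The site with the most fragments lay in intron 3 of 24 of Nfkb1, which encodes the p105 precursor of the NF-κB subunit p50 (chromosome 3, 135665080 to 135666327). It held 390 fragments in the control and 373 with RA in the smaller pool, with a fold of 42.9 and 61.9, respectively. Scaled to depth, RA gave 1.35 times the control fragments (1.16 to 1.55). This interval lies above 1 but covers counting error only, and a difference between conditions was not tested. A RARα peak overlapped it in both conditions, where the RARα fold was 5.82 without RA and 3.38 with it. The other sites among the 10 lay in Pptc7, a mitochondrial phosphatase (41.3 in the control and 36.6 with RA), Mfap5, a microfibril protein of the extracellular matrix (41.2 and 37.6), Oxsr1, a stress-responsive kinase (40.2 and 37.3), and Cubn, an endocytic receptor of kidney and intestine (39.7 and 48.7). The last ones were Vmp1, a membrane protein needed for autophagy (38.8 and 28.5), and 2010111I01Rik (38.3 and 32.4). Mfap5 and Cubn are known from other tissues, and the annotation names a gene by position alone.

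Among kept sites with at least 30 fragments in 1 of the lists, the lowest ratios of RA to control fold were at Laptm5, Ninj2, Chtf8, Arhgef10 and Agpat3. The intron 1 site of Laptm5, a lysosomal membrane protein that limits T cell receptor levels, had 59 fragments and a fold of 11.7 in the control, and 25 fragments and a fold of 3.17 with RA (chromosome 4, 130921042 to 130922440). Its depth-scaled ratio was 0.596 (0.358 to 0.967), its IgG level was 4.08 in the control and 7.20 at the RA summit, and a RARα control peak of fold 2.52 overlapped it. At Agpat3, an acyltransferase of phospholipid synthesis, 52 fragments stood against 15 (depth-scaled ratio 0.406, 0.212 to 0.732). The site in Arhgef10, a guanine nucleotide exchange factor, had 46 and 15 (0.459, 0.238 to 0.837). The Ninj2 and Chtf8 sites did not overlap their RA peaks, which lay 3970 and 3171 bp away. The 5 highest ratios, at Rere, Mir466p, Pptc7, Gosr1 and a second Nfkb1 site, were all found without overlap and compare a site of 17 to 27 control fragments with a strong neighbour.

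The highest ratios at overlapping sites, a choice added after the values were seen, were at Ubash3a, Smg6, Psen2, Slc9a9 and Pik3r5. At Ubash3a, a suppressor of T cell receptor signalling, 16 control fragments stood against 34 with RA (depth-scaled ratio 2.99, 1.61 to 5.80). The control peak there (chromosome 17, 31224618 to 31224889) lay near the end of a longer RA peak (31223307 to 31224901). The summits compared may therefore lie apart. At Smg6, a nuclease of nonsense-mediated decay, 26 stood against 41 (2.22, 1.33 to 3.78), and the fold was 6.91 and 13.9 (chromosome 11, 75154083 to 75154455). RARα peaks overlapped the Smg6 site in both conditions and were also higher with RA, with 23 fragments and a fold of 6.18 in the control and 38 fragments and a fold of 9.86 with RA. The Pik3r5 site, in a regulatory subunit of PI3 kinase gamma, had a fold of 6.12 and 11.6 but a depth-scaled ratio of 0.627 (0.423 to 0.915), with an IgG level of 14.0 in the control and 2.63 at the RA summit. The direction at Pik3r5 therefore depended on the IgG level.

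RARα was found nearby in the control, with a peak within 5 kb, at 284 of the 2051 sites (13.8%, 12.4 to 15.4). Over all classes the share was 8.90% of kept BATF control peaks (8.38 to 9.44) and 7.16% of all BATF control peaks, kept or not. The share was 16.7% at kept intergenic peaks (15.1 to 18.5) and 5.29% at kept promoter peaks (4.79 to 5.84). At intron peaks without an RA peak it was 5.49% (4.30 to 6.97). Kept intron and intergenic sites thus had RARα nearby more often than promoters did, and the intervals did not overlap. With RA, 31 sites had a RARα peak within 5 kb (1.51%, 1.07 to 2.14), and 28 of these 31 also had a RARα control peak. Over all classes, the share with RA was 1.08% of kept BATF control peaks (0.901 to 1.29) and 0.841% of all BATF control peaks. The RARα list itself was shorter with RA, with 565 peaks on these chromosomes against 1160. Of the RARα peaks, 209 control peaks (18.02%) and 25 RA peaks (4.42%) lay within 5 kb of a kept intron site.

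Direct overlap was less frequent than a peak within 5 kb. A RARα control peak overlapped 150 sites (7.31%, 6.26 to 8.52), against 4.83% of kept and 3.92% of all BATF control peaks. Among the 1315 sites that overlapped a BATF RA peak, a RARα control peak overlapped 136 (10.3%, 8.81 to 12.1), against 5.57% over all classes. Of the 736 other sites it overlapped 14 (1.90%, 1.14 to 3.17), against 2.21% over all classes, below the 3.92% given above. A RARα peak with RA overlapped 21 sites (1.02%, 0.671 to 1.56), against 0.634% of kept and 0.487% of all BATF control peaks. The share of sites within 5 kb of a RARα control peak did not follow BATF strength. It was 13.7% up to a control fold of 4 (10.2 to 18.02), 15.9% for 7 to 10 (12.4 to 20.2) and 11.7% above 15 (7.52 to 17.7). Sites that a RARα control peak overlapped had a median BATF control fold of 7.12. The median was 5.63 over all 2051 sites and 6.79 over the 1315 that overlapped a BATF RA peak. Overlapping BATF sites near a RARα control peak had a median log2 ratio of RA to control BATF fold of -0.23 (176 sites), and those away from RARα had -0.18 (1139 sites).

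**Figure D3:**
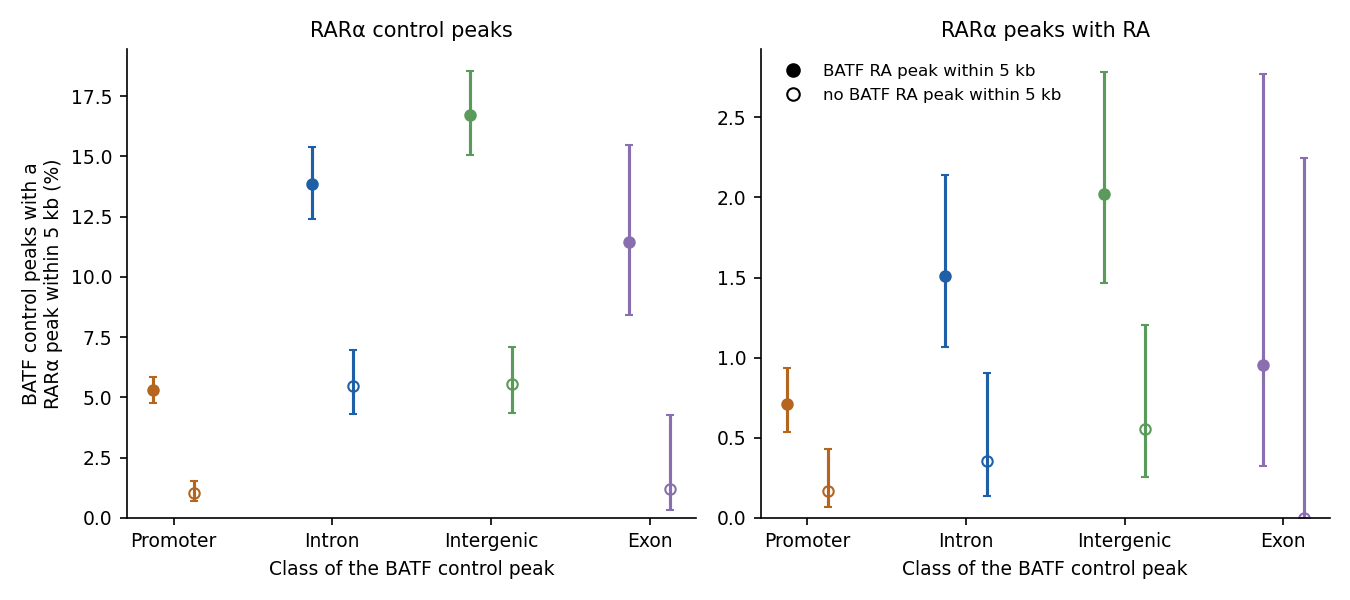
Share of BATF control peaks with a RARα peak within 5 kb in the control (left) and with RA (right; the y axes differ), by the class of the BATF peak, for peaks with (filled) and without (open) a BATF RA peak within 5 kb, with Wilson 95% intervals. Kept intron peaks reach 13.8% in the control and 1.51% with RA, and kept promoter peaks 5.29% and 0.710%.

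The kept sites that overlapped the strongest RARα control peaks were in Lig1, Ncoa3, Nedd9, Asb2 and Galm. At Lig1, a DNA ligase of replication (chromosome 7, 13302868 to 13303149), the RARα fold was 17.8 in the control with 105 fragments, no RARα RA peak lay within 5 kb, and the BATF fold was 6.42 without RA and 5.65 with it. At the intron 2 site of Asb2, a ubiquitin ligase subunit known as a retinoic acid target (chromosome 12, 103341247 to 103341589), the RARα fold was 11.2, again with no RARα RA peak within 5 kb, while BATF had 15.9 and 15.5. The RARα peak was listed in the control alone at both sites and the BATF fold differed little.

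RARα peaks of both conditions overlapped 19 kept sites, at 19 distinct RARα control peaks. The RARα fold was lower with RA at 17 of them, a share to be read beside the 91.1% of all BATF control peaks that overlap both RARα lists, and its median was 6.30 in the control and 4.05 with RA. Among the 17 of these sites that overlapped a BATF RA peak, the BATF fold was lower with RA at 10, with a median log2 ratio of -0.05. In Ncoa3, a nuclear receptor coactivator, RARα had a fold of 13.3 without RA and 6.62 with it, and BATF had 6.12 and 5.62 (chromosome 2, 166031111 to 166031603). At Nedd9, a scaffold protein of integrin signalling, RARα had 12.4 and 4.73, and BATF had 9.60 and 10.7 (chromosome 13, 41381110 to 41382041). At the intron 3 site of Lef1, a factor of naive and memory T cells, RARα had 10.7 and 6.08, and BATF had 13.1 and 12.4 (chromosome 3, 131157255 to 131158825). The intron 2 site of Inpp5d, which encodes the phosphatase SHIP1, had the strongest BATF signal of these, with a fold of 32.7 and 35.0, where RARα had 7.47 and 3.29. At Galm, an enzyme of galactose metabolism, RARα had 11.1 and 6.09, and at Maml3, a Notch coactivator, 7.55 and 3.55, where BATF had 8.33 and 5.83. The RARα fold was lower with RA at each of these 6 sites, whereas the BATF fold was higher at Nedd9, Galm and Inpp5d and lower at Ncoa3, Lef1 and Maml3.

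The annotation numbered the intron for 1646 sites. Intron 1 held 812 of these (49.3%, 46.9 to 51.7), against 46.2% of all BATF control intron peaks with a number, and 40.2% of those without an RA peak (37.0 to 43.5). It held 44.6% of the overlapping sites (41.7 to 47.6). Of the 2051 sites, 365 (17.8%, 16.2 to 19.5) were annotated to a repeat, most often a SINE (144 sites), then an LTR element (85) or a LINE (71). Among intron peaks without an RA peak 19.6% were in repeats (17.4 to 22.1). A BATF control peak was also found at the promoter of the same gene for 1677 sites (81.8%, 80.0 to 83.4), against 73.0% of the other intron peaks (70.3 to 75.5). The 5 kb rule can keep an intron peak through an RA peak at a promoter, which was the nearest one at 196 sites without overlap. How far the rule itself sets the intron 1 and promoter contrasts with the other intron peaks was not tested.

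The sites lay in 1085 genes, of which 646 had 1 site, 368 had 2 to 4 and 71 had 5 or more. At least 1 site was found in 4.72% of protein-coding genes, and in 14.8% of those that span 100 kb or more. Merging sites within 5 kb of each other gave 1397 regions, and 151 regions of at least 3 sites held 562 sites. Grap2, which encodes the adaptor GADS that links LAT to SLP-76 below the T cell receptor, held the most, with 18 sites over 80.3 kb, and all of its BATF control intron peaks were kept. Of these, 7 overlapped an RA peak. Its strongest site (chromosome 15, 80580696 to 80583793) had 180 fragments and a fold of 29.8 in the control, and 110 fragments and 24.1 with RA. The other Grap2 sites held 17 to 59 fragments in the control, so a single strong site stood among many weaker ones.

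Ets1, a factor of T cell development and survival, held 17 sites, of which 7 overlapped an RA peak. The strongest, in intron 6 of 7, had a fold of 14.8 and 11.0. Atxn1, a transcriptional regulator, held 15 sites, of which 11 overlapped, and its strongest had 18.6 and 17.6 with a depth-scaled ratio of 0.985 (0.760 to 1.27). Sema4d, the semaphorin CD100 of lymphocytes, also held 15 sites, 7 of them within 5 kb of a RARα control peak (13.8% among all kept sites). These 7 neighbouring sites shared 2 RARα control peaks. The strongest Sema4d site overlapped a RARα control peak of fold 3.37. That site had a BATF fold of 8.67 and 6.002, with a depth-scaled ratio of 0.577 (0.370 to 0.882). Foxp1, which keeps T cells quiescent, Bcl11b, a factor of T lineage identity, Septin9, a cytoskeletal protein, and Cyth1, a regulator of integrin adhesion, held 13 sites each. Their strongest sites had 14.0 and 13.5 (Foxp1), 11.0 and 12.2 (Bcl11b), 10.04 and 7.59 (Septin9), and 9.63 and 7.28 (Cyth1). In each of these 8 genes, between 6 and 11 sites overlapped an RA peak, and the strongest site was one of them.

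**Figure D4:**
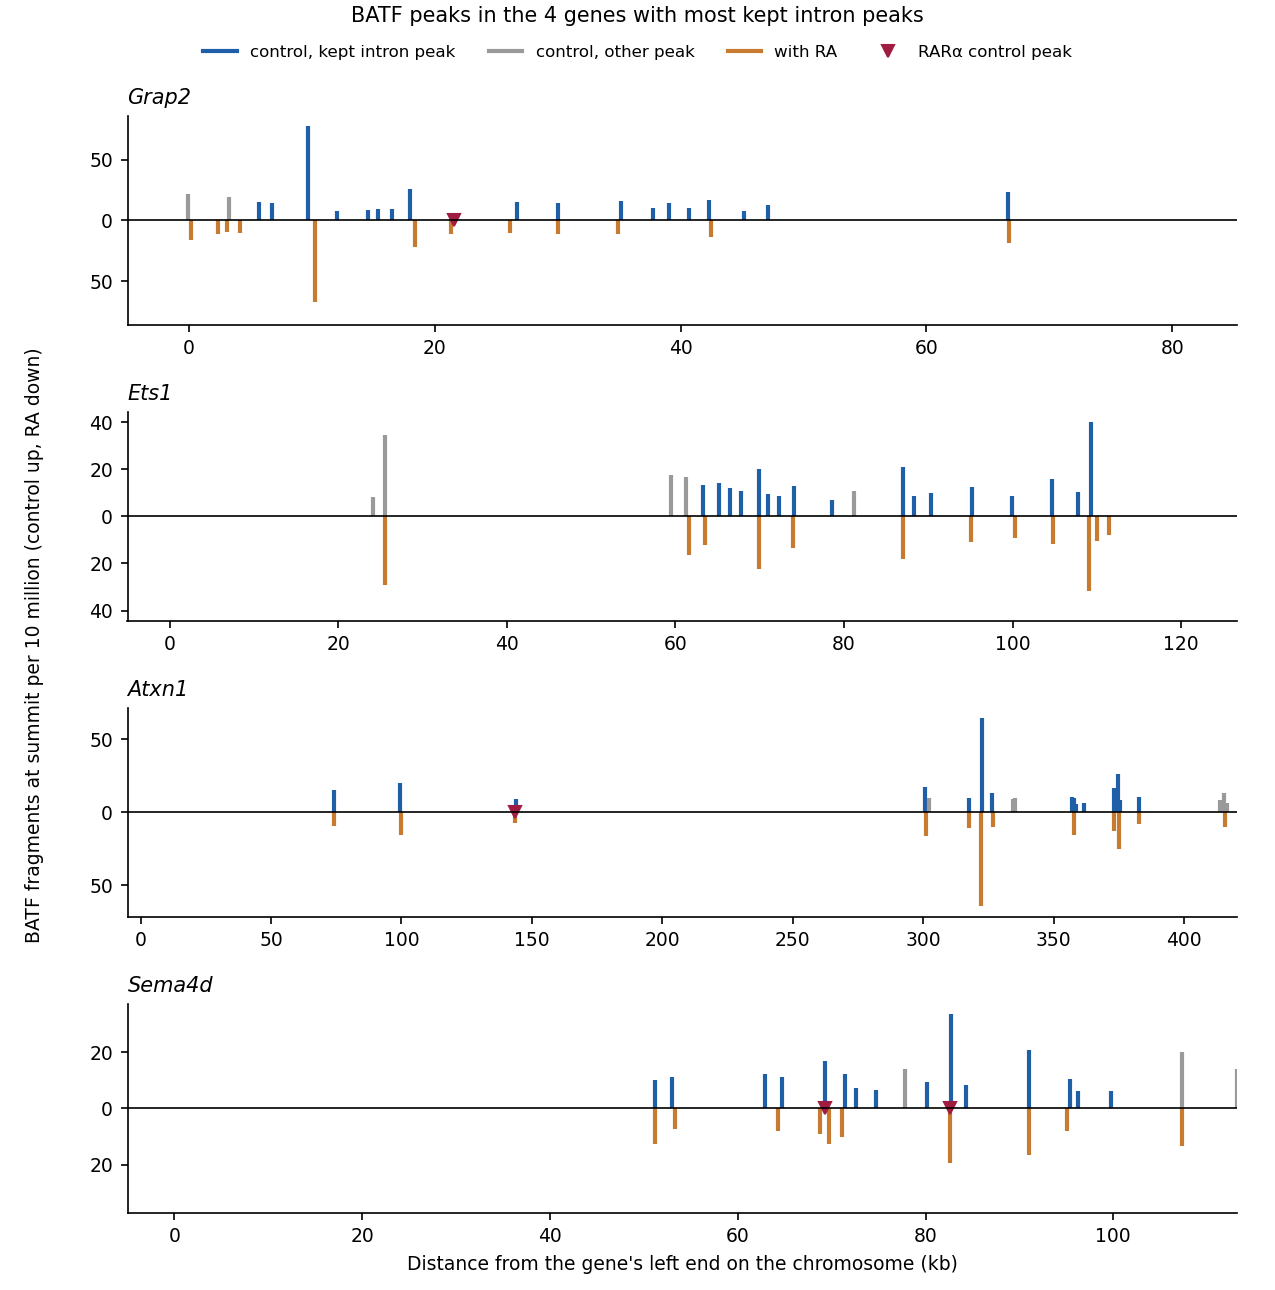
BATF peaks in and within 5 kb of the 4 genes with most kept intron sites, placed by peak midpoint as the distance in kb from the end of the gene with the lower position (x axis), with fragments at the summit scaled to the same pool depth (y axis; control upward, RA downward). Kept control intron peaks are blue, other control peaks grey, RA peaks orange, and triangles mark RARα control peaks. Each gene has fewer RA peaks than control peaks (12 and 20 at Grap2, 12 and 22 at Ets1 and at Atxn1, 10 and 18 at Sema4d). The whole BATF list is also shorter with RA, with 9899 peaks against 15812 in the control. The tallest control peak stands above the tallest RA peak or close to it (64.9 and 63.9 at Atxn1).

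Genes were then read by lists of known function. A BATF control peak at a promoter or in an intron, kept or not, was found in 39.7% of protein-coding genes. Of 14 genes for T cell identity and the CD8 coreceptor 13 had such a peak, whereas 1 of 22 B cell, myeloid and NK cell markers and 1 of 29 genes of non-lymphoid tissues had one. A kept intron site, found in 4.72% of protein-coding genes, was present in 9 of 14 memory and stemness factors and in 15 of 27 genes of T cell receptor signalling. These genes were long, with a median span of 59.3 and 71.7 kb, against 17.2 kb over protein-coding genes. Sites were found in 5 of 14 T cell identity genes, 5 of 13 effector factors, 5 of 13 costimulatory receptors, 9 of 28 cytokine receptors and STATs, 6 of 20 trafficking receptors and integrins, and 4 of 17 AP-1 and BATF family genes. Cytotoxic molecules and cytokines, whose genes were short (median 5.18 kb), had a share near that of all genes (1 of 18, 5.56%), and the IRF family had 1 of 9. The other lists held 5 of 23 genes of the retinoic acid pathway, 3 of 15 exhaustion factors and inhibitory receptors, 1 of 22 B cell, myeloid and NK markers and 0 of 29 genes of non-lymphoid tissues.

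**Figure D5:**
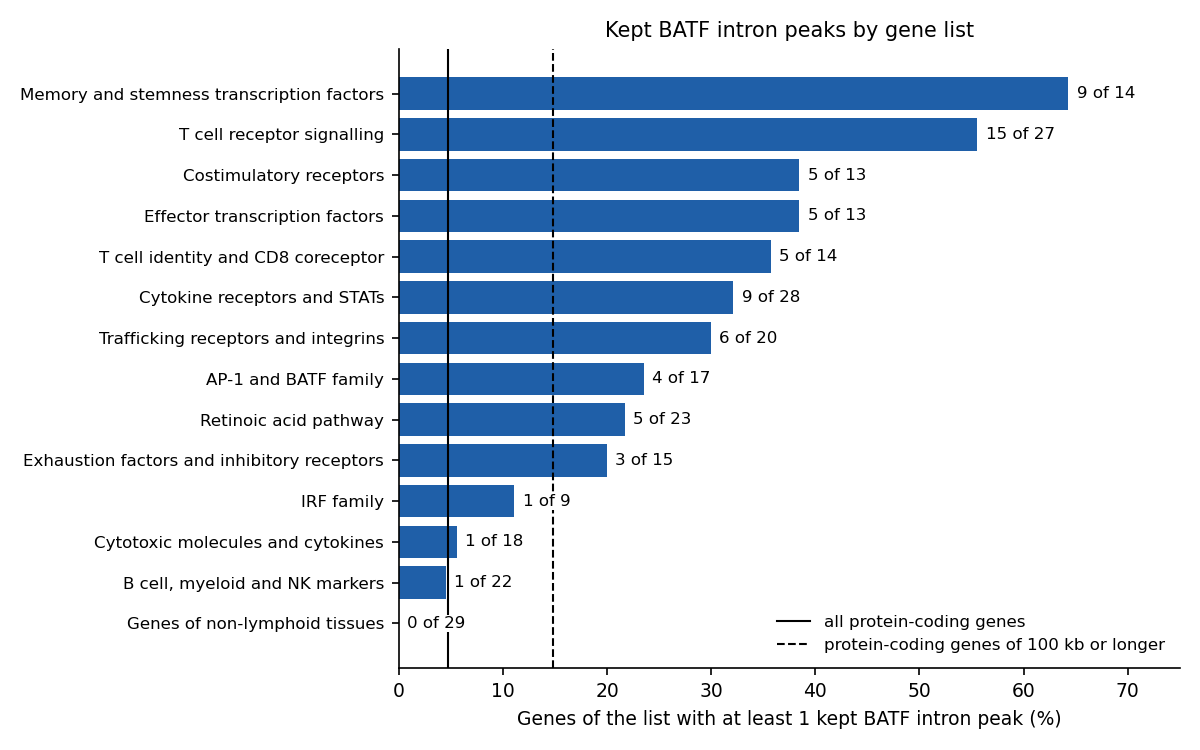
Share of genes in each list with at least 1 kept BATF intron site (bars, with counts), beside the share over all protein-coding genes (solid line, 4.72%) and over those of 100 kb or longer (dashed line, 14.8%). Memory and stemness factors (9 of 14) and T cell receptor signalling genes (15 of 27) have the highest shares.

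The counts by list that follow are to be read beside the 64.1% of all kept sites that overlapped an RA peak and the 71.1% of overlapping sites that had a lower fold with RA. In T cell receptor signalling, 20 of 47 sites overlapped an RA peak, and the fold was lower with RA at 15 of the 20, a share near that of all overlapping sites. Cblb, a ubiquitin ligase that restrains activation, went the other way at its strongest site, in intron 3 of 17, with 73 fragments and a fold of 17.4 in the control, and 85 fragments and 26.7 with RA (depth-scaled ratio 1.64, 1.18 to 2.27). The strongest of several intron 1 sites of Prkcq, the kinase PKC theta, had 7.20 and 4.11, and the strongest site of Ptprc, the phosphatase CD45, had 11.2 and 11.0. Among T cell identity genes, the strongest sites had a fold of 17.5 and 15.2 in Lck, the kinase that starts receptor signalling, 6.78 and 5.62 in Cd28, the costimulatory receptor, and 6.52 and 3.91 in Cd247, the zeta chain of the receptor. None of the 4 sites in Cd8b1, the CD8 beta chain, overlapped an RA peak.

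In the memory and stemness list, 23 of 56 sites overlapped an RA peak, a smaller share than among all kept sites, with a median log2 ratio of -0.25 and a lower fold at 17, again near the share of all overlapping sites. Among effector factors, the strongest sites had 11.9 and 5.70 in Rora, a nuclear receptor (47 and 17 fragments, depth-scaled ratio 0.509, 0.274 to 0.903), 12.5 and 14.2 in Nfil3, a leucine zipper repressor, and 4.41 and 3.73 in Stat4, which carries the IL-12 signal. In the AP-1 and BATF family they had 17.8 and 13.0 in Bach2, a repressor that holds back effector differentiation, 12.9 and 10.3 in Bach1, a related repressor, and 8.44 and 7.93 in Nfe2l2, the factor of the oxidative stress response. The site of Mafk, a small Maf partner of these factors, and that of Irf2, an interferon regulatory factor, did not overlap an RA peak. Of the overlapping sites named from both lists, Rora alone had a counting interval below 1.

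Among exhaustion factors and inhibitory receptors, all 4 sites overlapped an RA peak. Without and with RA, the fold was 13.8 and 15.7 in Tigit, an inhibitory receptor, 5.95 and 6.25 in Tox, a factor of exhausted cells, and 7.35 and 6.55 at the stronger site of its relative Tox2. Among costimulatory receptors, the site of Tnfrsf9 (4-1BB) had 5.51 and 7.39, that of Slamf7 had 5.50 and 4.14, and the stronger site of Slamf6 had 11.4 and 10.4, while neither Cd226 site overlapped. At Tigit, Tnfrsf9, Slamf6 and Slamf7 the depth-scaled intervals included 1 (0.851 to 1.75, 0.915 to 2.63, 0.770 to 1.54 and 0.434 to 1.36).

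Of the 17 sites in cytokine receptors and STATs, 7 overlapped (64.1% among all kept sites), and the fold was lower with RA at 6 (71.1% among all overlapping sites). The strongest sites had 9.07 and 4.78 in Jak1, a kinase of many cytokine receptors, 8.33 and 7.14 in Il2ra, the IL-2 receptor alpha chain, and 8.49 and 6.55 in Il6ra, the IL-6 receptor, and neither Il6st site overlapped. In the trafficking list all 8 overlapping sites had a lower fold with RA, against 71.1% of overlapping intron sites. Strong sites among them had 11.7 and 8.25 in Itgae, which pairs with beta 7 as CD103, 15.9 and 15.0 in Cxcr5, a chemokine receptor, and 8.39 and 7.28 in Itgb2, an integrin beta chain.

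In the retinoic acid pathway, 7 of 8 sites overlapped an RA peak. Ncoa2, a coactivator of nuclear receptors, had a fold of 34.3 in the control and 23.8 with RA at its site in intron 16 of 22, with 133 and 71 fragments (depth-scaled ratio 0.751, 0.555 to 1.01). Rara, the gene of RARα itself, held 2 sites of fold 5.68 and 6.13, both within 5 kb of a RARα control peak and neither near a RARα RA peak. Its stronger site did not overlap an RA peak. The site in Lif, a cytokine, had 19 fragments and did not overlap an RA peak, while a RARα control peak of fold 2.77 overlapped it. In Pax5, a B cell factor and the sole marker of other blood cells with a kept site, the fold was 8.70 without RA and 14.2 with it (33 and 42 fragments, depth-scaled ratio 1.79, 1.11 to 2.92).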

How the data were processed

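Peak lists for RARα and BATF, each in the control and with RA, were used as deposited. Per the file headers, the authors called peaks with MACS 2.2.7.1 in paired-end mode on mm10, with 2 pooled ChIP alignment files against 1 IgG file per list, and with a p-value cutoff of 1e-05 for BATF and 0.001 for RARα. The processing notes also name HOMER, and the study's methods name Bowtie2. The deposited pileup is a signal that counts fragments at the peak summit, and for BATF control it came scaled by 0.9875 per fragment, which was undone here. The deposited fold enrichment is a ratio of the pileup plus 1 over the IgG level plus 1. The deposited p-values and q-values are on the −log10 scale, and q-values were not used because the headers contradict their column. The authors gave positions, gene names and a class for each peak.

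A control peak was kept when an RA peak lay within 5 kb. It was paired with the RA peak of nearest midpoint, and overlapping pairs (at least 1 bp) were also given. Depth-scaled ratios divide fragments by the pool's total, with an exact binomial interval conditional on the sum. Pools held 16424269 to 23110180 fragments, and IgG 11410673. Shares have Wilson 95% intervals. Gene spans came from a RefSeq table for GRCm38.p6, and 99.5% of gene names in the BATF control list matched it.

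The members and gene lists were chosen with earlier results of these data known. The text names the 10 sites of highest control fold, the 8 genes with most sites, up to 4 genes per list, the 5 highest and 5 lowest ratios at 30 or more fragments, up to 6 sites overlapping the strongest RARα control peaks and up to 6 overlapping RARα peaks in both lists, and 3 sites on each side of the distance limit. Other distances, cutoffs and pairings were tried. The pairing and overlap steps were tested on simulated data. Sequences and motifs were not analysed here, and 1 gene that the rule names is not reported here. Scripts ran under Python 3.11.15 (pandas 2.3.3, numpy 2.4.6, matplotlib 3.10.9, scipy 1.17.1).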

Additional observations from a re-analysis of the deposited data

How the results depend on the processing

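The number of kept intron sites was 2051 at 5 kb, 1315 with overlap and 1007 with a fold of at least 5 in both lists. The share kept was 41.3% with overlap, 47.6% at 1 kb, 73.2% at 10 kb, 62.1% with p-values of at most 1e-07 in both lists and 57.7% with a fold of at least 5. The share of sites with a lower fold with RA fell below the even share when the highest RA peak within 5 kb was used (49.9%) or when the IgG level was used without the added constant (49.5%). It was 71.1% for overlapping pairs and 52.1% for fragments scaled to pool depth. Alternatives chosen after seeing the data gave 63.4% for overlapping pairs with the highest RA peak and 66.9% for overlapping pairs by depth-scaled fragments. Without the added constant, 59.3% of overlapping pairs were lower, so the majority was lower at overlapping sites under each measure run. The share near a RARα control peak was 7.31% with overlap and 7.46% with RARα p-values of at most 1e-05, and that near a RARα RA peak was 1.02% with overlap. Intron 1 held 44.6% of overlapping sites. Of the 32 alternatives, 15 stayed within the range set for no change (1.5 times for a count), among them 1514 sites at 1 kb, 1397 merged regions and 50 of 69 listed genes with overlap, and the genes with sites numbered 922 to 1085. The cause of these shifts was not tested beyond what each setting changes by construction. No paired analysis was possible because each condition has 1 peak list. No replicate could be left out, since the pooled files are not separate in the lists. The planned motif search, with its alternatives, was not run because no genome sequence was used. The RA pool held 71.1% of the BATF control fragments, which limits what can be read from weak or missing RA peaks.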
